A study of Mus musculus with 16 samples.

Results

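The respiratory chain genes were taken by name from the deposited gene count table: the protein-coding Nduf, Sdh, Uqcr, Cyc, Cox and Atp5 genes of the nucleus and the 13 protein-coding genes of the mitochondrial genome. The rule found 99 genes of 48709 in the table. Of these, 86 are nuclear, with 37 of complex I, 4 of complex II, 10 of complex III with cytochrome c, 18 of complex IV and 17 of complex V, and 13 are mitochondrial, with 7 of complex I, 1 of complex III, 3 of complex IV and 2 of complex V. RNA had been sequenced from heart and liver of 8 untreated female C57BL/6J mice aged 3 to 6 months. 4 of them carried the label Msr Quadruple Knockout (QKO), and the series' title states that the known methionine sulfoxide reductases (Msr), enzymes that reduce oxidised methionine in proteins, were knocked out. The other 4 were wild type (WT). Both tissues came from each animal, giving 4 libraries in each of the groups QKO heart, WT heart, QKO liver and WT liver. The labels name no single Msr gene, allele or breeding scheme, so which sequences were removed is not stated.

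The respiratory chain passes electrons from NADH (complex I) and succinate (complex II) through ubiquinone to complex III, and through cytochrome c to complex IV and oxygen, and the proton gradient built on the way drives ATP synthase (complex V). Complexes I, III, IV and V are assembled from nuclear and mitochondrial gene products together, while complex II is wholly nuclear. Heart muscle is dense in mitochondria and uses its own isoforms of several complex IV subunits, whereas liver uses the isoforms found in most tissues.

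The heart libraries held 42.1 to 72.6 M counts in all and 9.21 to 28.2 M counts on protein-coding genes. The liver libraries held 37.9 to 67.9 M counts in all and 21.6 to 40.7 M counts on protein-coding genes. The knockout label was checked on Msrb2, a mitochondrial methionine sulfoxide reductase, which had 0.116 to 0.2302 CPM (counts scaled to the normalised library size) in QKO hearts against 12.01 to 14.6 CPM in WT hearts, and 0 to 0.04595 CPM in QKO livers against 2.52 to 6.24 CPM in WT livers. Nuclear ribosomal RNA loci took 0.101% of all counts in QKO heart 4 and 4.98% in WT heart 4, against 21.7% to 39.3% in the other hearts. The summed level of 12 cardiomyocyte markers was 54440 to 80730 CPM of the nuclear protein-coding count in hearts, and that of 12 hepatocyte markers was 94500 to 120300 CPM in livers. Summed over 11 skeletal muscle markers, WT liver 4 stood at 624 CPM, QKO liver 2 at 47.5 CPM and the other livers at 1.39 to 7.28 CPM. Summed over 5 brown adipocyte markers, WT liver 4 stood at 23.02 CPM and the other livers at 1.515 to 8.766 CPM, although 1 of them, Elovl3, was lowest in WT liver 4 (0.7412 CPM). Summed over 11 pancreatic acinar markers, WT livers 3 and 4 stood at 1610 and 486 CPM and the other livers at 7.55 to 14.4 CPM.

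Hearts gave a larger share of their messenger RNA to the respiratory chain than livers. The 13 mitochondrial genes took 10.3%, 12.8%, 9.95% and 13.7% of the protein-coding count in QKO hearts, 12.3%, 12.2%, 11.9% and 12.4% in WT hearts, 1.23%, 1.45%, 1.13% and 1.36% in QKO livers and 1.59%, 1.17%, 1.43% and 1.09% in WT livers. Every heart lay above every liver, while the QKO and WT values overlapped in both tissues. The nuclear genes took 3.797%, 4.49%, 4.4% and 5.26% of the nuclear protein-coding count in QKO hearts, 4.08%, 4.01%, 3.69% and 4.69% in WT hearts, 1.36%, 1.53%, 1.604% and 1.497% in QKO livers and 1.54%, 1.404%, 1.46% and 1.63% in WT livers. Here, too, every heart lay above every liver and the genotypes overlapped, and in both genotypes the highest heart was number 4, the one with little nuclear ribosomal RNA. In whole tissue, fewer cells of a type and less RNA per cell cannot be told apart.

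**Figure D1:**
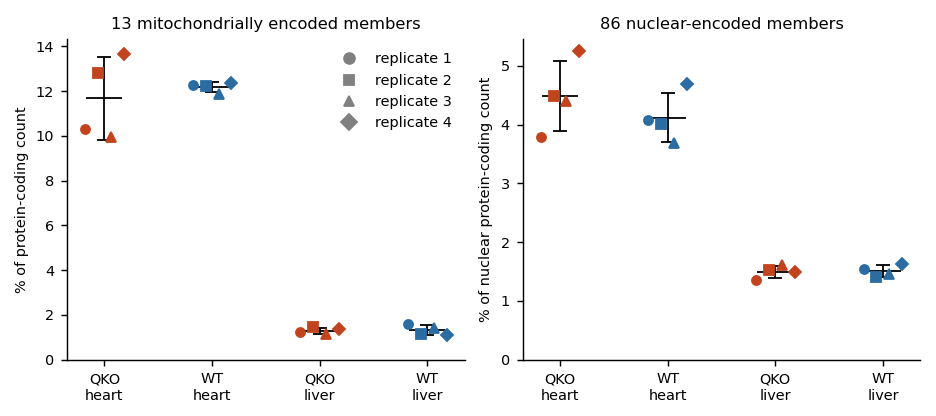
Share of the count taken by the 13 mitochondrial genes (% of the protein-coding count) and by the nuclear genes (% of the nuclear protein-coding count) in each library of the 4 groups. The hearts lie above the livers in both panels, and QKO and WT overlap in each tissue.

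Levels per kb of transcript showed which genes stood at the top. The mitochondrial mt-Co1, the catalytic subunit of complex IV, was first in every group, with 17320 ± 2718 CPM per kb in QKO hearts, 17170 ± 1605 in WT hearts, 3197 ± 359 in QKO livers and 3149 ± 639.5 in WT livers (SD, n = 4 each). It made up 59.04% to 69.8% of the mitochondrial messenger count, not scaled for length, in hearts and 85.3% to 90.4% in livers. The next by mean was mt-Nd1, a membrane subunit of complex I, with 4610 ± 449.6 CPM per kb in QKO hearts, 5081 ± 923 in WT hearts, 279 ± 79.3 in QKO livers and 269 ± 75.4 in WT livers. In WT hearts mt-Nd1 ran from 3720 to 5699 CPM per kb and mt-Cytb from 2639 to 4137, and mt-Co2 of WT heart 4 stood at 4035. The levels of mt-Nd1 and mt-Cytb also overlapped in QKO livers and in WT livers. Several mitochondrial genes have nuclear copies, given below, so these ranks and shares depend on how reads matching several places were counted. Among the nuclear genes Atp5a1, the alpha subunit of ATP synthase, was first in every group, with 467 ± 19.7 CPM per kb in QKO hearts, 432 ± 7.62 in WT hearts, 188 ± 11.04 in QKO livers and 185 ± 21.8 in WT livers. In hearts it was followed in level by the complex IV muscle isoforms Cox6a2, Cox7a1 and Cox8b, at 417 ± 36.6, 387 ± 31.9 and 314 ± 27.2 CPM per kb in QKO hearts and 401 ± 50.4, 346 ± 28.5 and 294 ± 34.8 in WT hearts. Atp5a1 and Cox6a2 overlapped in QKO hearts and WT hearts, Cox6a2 and Cox7a1 overlapped in QKO hearts and WT hearts and Cox7a1 and Cox8b overlapped in QKO hearts and WT hearts. Cox8b also overlapped Atp5b, which ran from 302 to 329 CPM per kb in QKO hearts and from 280 to 299.9 in WT hearts. In livers the next were Uqcr11, a small subunit of complex III, and Atp5b, the catalytic beta subunit of ATP synthase, at 160.3 ± 29.6 and 150.3 ± 12.4 CPM per kb in QKO livers and 146 ± 25.5 and 143 ± 8.25 in WT livers, with overlap between these neighbours in both genotypes. At the other end, the complex IV gene Cox8c had 0 counts in every library, and Cox7b2 and Cox6b2 had at most 5 and 19 counts in any library.

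Between tissues, 75 of 83 nuclear genes tested were higher and 2 lower in QKO hearts than in QKO livers, against 37.2% and 37.1% of all 18039 genes tested (edgeR quasi-likelihood test, adjusted p under 0.05). The median log2 change was 1.07 for the nuclear genes and 0.009 for all genes. In WT animals 72 of 83 were higher and 2 lower in hearts than in livers, against 35.6% and 36.9% of all 18204 genes, with medians of 1.03 and -0.025. Cox8c, Cox7b2 and Cox6b2 were too low to be tested.

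By complex, the counts higher in WT hearts than in WT livers were 33 of 37 for complex I, 3 of 4 for complex II, 9 of 10 for complex III with cytochrome c, 11 of 15 for complex IV and 16 of 17 for complex V. In QKO hearts against QKO livers they were 35 of 37, 3 of 4, 9 of 10, 12 of 15 and 16 of 17 in the same order. In complex I the log2 change was highest for Ndufa4l2, a relative of Ndufa4 known as a hypoxia target, at 2.84 ± 0.31 (± SE, adjusted p = 8.93e-06), and next for Ndufa5, an accessory subunit, at 1.97 ± 0.14 (adjusted p = 3.26e-07). Ndufa4l2 was low in both tissues, with 1.378 to 3.11 CPM in WT hearts and 0.2301 to 0.4706 CPM in WT livers. Ndufa5 had 55.96, 58.7, 62.7 and 53.9 CPM in WT hearts against 18.7, 14.4, 11.8 and 14.4 CPM in WT livers, with no overlap. The lowest values of complex I were those of the accessory subunits Ndufa6 (-0.19 ± 0.17, adjusted p = 0.332) and Ndufa7 (0.19 ± 0.15, adjusted p = 0.261), which did not pass, although Ndufa7 passed with upper-quartile scaling (adjusted p = 0.0322). Of complex II, the catalytic subunit Sdha (1.23 ± 0.16, adjusted p = 2.64e-05) and the iron-sulfur subunit Sdhb (1.03 ± 0.16, adjusted p = 1.49e-04) were higher in WT hearts. Of its membrane anchors, Sdhc was higher by 0.37 ± 0.12 (adjusted p = 0.0168), which missed the threshold with no filter on low counts (adjusted p = 0.0666), and Sdhd at 0.12 ± 0.13 did not pass (adjusted p = 0.418). Cycs, the electron carrier cytochrome c, led complex III with 1.71 ± 0.13 (adjusted p = 5.45e-07), and the core protein Uqcrc2 followed with 1.15 ± 0.14 (adjusted p = 2.70e-05). The small subunit Uqcr10 was higher by 0.47 ± 0.13 (adjusted p = 0.00621), and Uqcrq at 0.12 ± 0.14 did not pass (adjusted p = 0.452).

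The genes for subunit c of the ATP synthase ring differed among themselves. Atp5g1 had 249.8, 283, 219.9 and 249.9 CPM in WT hearts against 65.8, 66.04, 63.1 and 68.8 CPM in WT livers, with no overlap. Its log2 change of 1.94 ± 0.15 (adjusted p = 4.15e-07) was the highest of complex V, and Atp5o, a subunit of the stalk, came next at 1.77 ± 0.16 (adjusted p = 1.31e-06). Atp5g2, which encodes the same mature subunit c, had 34.8, 37.9, 29.3 and 34.6 CPM in WT hearts against 31.98, 32.5, 27.7 and 37.7 CPM in WT livers. Those ranges overlapped, and its change of 0.084 ± 0.12 did not pass the test (adjusted p = 0.5597). Atp5g3, another gene of subunit c, had 204.2, 222.2, 192.9 and 213.5 CPM in WT hearts against 114.3, 116.1, 109.6 and 105.6 CPM in WT livers, with no overlap. Atp5e, the epsilon subunit, was higher in WT hearts by 0.41 ± 0.16 (adjusted p = 0.0377), a call that was lost when WT heart 1, 2 or 4 or WT liver 1, 2 or 3 was left out (adjusted p of 0.06396 to 0.101) and with no filter on low counts (adjusted p = 0.07096).

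**Figure D2:**
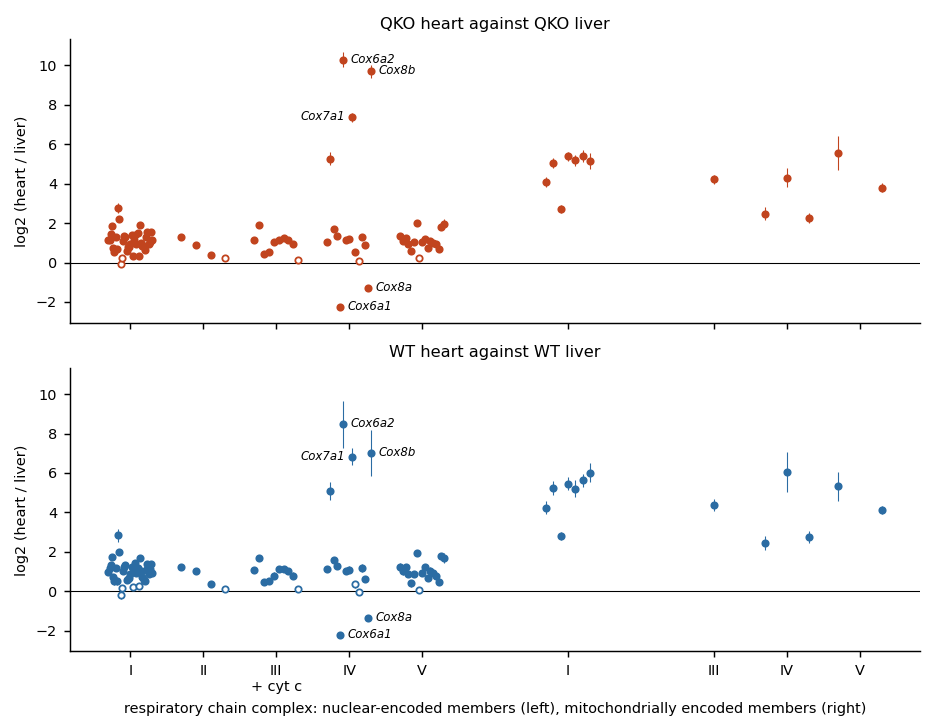
Log2 change of heart over liver for each tested gene, by complex, in QKO animals (top) and WT animals (bottom), with SE as whiskers. Filled points passed an adjusted p of 0.05 and open points did not, and Cox6a1 and Cox8a are the filled points below 0.

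The genes lower in heart were Cox6a1 and Cox8a, the broadly expressed isoforms of complex IV subunits 6a and 8, while their muscle counterparts Cox6a2 and Cox8b had the highest changes of the nuclear genes. Cox6a1 had 14.2, 15.6, 14.98 and 13.4 CPM in WT hearts against 61.7, 71.7, 69.1 and 72.4 CPM in WT livers, with no overlap (log2 change -2.23 ± 0.11, adjusted p = 1.68e-08). Cox6a2 had 275, 320, 243 and 253 CPM in WT hearts against 0.123, 0.06601, 0.0863 and 2.88 CPM in WT livers. The highest of those livers was WT liver 4, the liver highest in the summed skeletal muscle and brown adipocyte markers, whose part in these values was not tested. The log2 change of Cox6a2 was 8.46 ± 1.18 (adjusted p = 6.03e-05), and 11.58 without that liver (adjusted p = 6.88e-11). In QKO animals it was 10.27 ± 0.38, and Cox6a1 was at -2.27 ± 0.12 (adjusted p = 7.62e-11 and 2.59e-09).

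Cox8a had 28.7, 31.4, 28.5 and 29.95 CPM in WT hearts against 76.2, 78.8, 70.3 and 83.7 CPM in WT livers, with no overlap (log2 change -1.37 ± 0.11, adjusted p = 7.14e-07). Cox8b had 108, 122, 91.3 and 102.9 CPM in WT hearts against 0.0614, 0.03301, 0.0539 and 3.205 CPM in WT livers, where the highest liver was again WT liver 4. Its log2 change was 7.02 ± 1.17 (adjusted p = 2.31e-04) with that liver and 11.07 (adjusted p = 5.66e-11) without it. In subunit 7a, the muscle isoform Cox7a1 had 196, 200.4, 168 and 177 CPM in WT hearts against 1.62, 0.8802, 0.96 and 3.22 CPM in WT livers (6.82 ± 0.44, adjusted p = 1.04e-07). Its broadly expressed counterpart Cox7a2 had 116, 123, 114 and 122 CPM in WT hearts against 117, 75.9, 72.4 and 108 CPM in WT livers, which overlapped (0.36 ± 0.18, adjusted p = 0.0903). It passed in WT animals with upper-quartile scaling (adjusted p = 0.0175), with limma-voom (adjusted p = 0.0347), with a filter of 1 CPM in 4 libraries (adjusted p = 0.0355) and without WT liver 1 (adjusted p = 0.0324) or WT liver 4 (adjusted p = 0.0449). In QKO animals Cox7a2 had 114, 130.5, 124 and 152 CPM in QKO hearts against 75.6, 94.8, 94.7 and 102.9 CPM in QKO livers, with no overlap, and was higher in heart by 0.53 ± 0.14 (adjusted p = 0.00318), a call kept in each alternative run. Cox7a2l, a relative that takes part in joining complexes into supercomplexes, had 54.1 to 59.5 CPM in WT hearts and 46.9 to 67.5 CPM in WT livers and did not pass (-0.022 ± 0.13, adjusted p = 0.8897). Cox4i1, a core nuclear subunit of complex IV, was higher in WT hearts by 1.12 ± 0.16 (adjusted p = 7.79e-05) and Cox6b1 by 1.05 ± 0.13 (adjusted p = 2.65e-05). Cox4i2, the minor relative of Cox4i1, was higher by 5.08 ± 0.46 (adjusted p = 1.80e-06). It had 83, 50, 46 and 194 counts in WT hearts against 0, 3, 6 and 8 counts in WT livers. Cox4i2, Cox6a2 and Cox8b were too low in liver to be tested there. They entered the comparison of tissues only through the hearts, so their p-values add no separate support.

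The QKO animals gave the same measurements in their own hearts and livers. Ndufa5 had 61.8, 60.03, 56.6 and 64.6 CPM in QKO hearts against 11.3, 14.2, 11.7 and 16.5 CPM in QKO livers (log2 change 2.21 ± 0.14, adjusted p = 9.35e-09). Sdha had 331, 289, 283 and 279 CPM in QKO hearts against 122, 132, 108 and 123 CPM in QKO livers (1.32 ± 0.12, adjusted p = 7.15e-07). Cycs had 120.1, 127, 122 and 146 CPM in QKO hearts against 27.3, 34.8, 37.5 and 40.2 CPM in QKO livers (1.91 ± 0.14, adjusted p = 5.44e-08). For these 3 genes, and for Atp5g1 (2.02 ± 0.14, adjusted p = 2.31e-08), every QKO heart lay above every QKO liver. Of the genes lowest in the WT comparison, Ndufa6 at -0.091 ± 0.11 did not pass (adjusted p = 0.46), Ndufa7 at 0.22 ± 0.11 did not pass (adjusted p = 0.105), Sdhd at 0.24 ± 0.11 did not pass (adjusted p = 0.0688), Uqcrq at 0.13 ± 0.17 did not pass (adjusted p = 0.499) and Atp5g2 at 0.22 ± 0.098 did not pass (adjusted p = 0.0605) in QKO animals. The isoforms lower in QKO hearts were again Cox6a1 and Cox8a, of which Cox8a had 28.6, 28.9, 31.03 and 36.5 CPM in QKO hearts against 67.7, 77.2, 96.9 and 73.3 CPM in QKO livers (-1.30 ± 0.14, adjusted p = 1.94e-06), and Cox8b had 102, 115, 111 and 126 CPM in QKO hearts against 0.02298, 0.258, 0.156 and 0.129 CPM in QKO livers (9.69 ± 0.34, adjusted p = 4.75e-11). Neither overlapped between tissues.

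As a share of each isoform pair, per kb, Cox6a2 made up 94.5% to 95.3% in QKO hearts, 94.4% to 95.5% in WT hearts, 0.156% to 0.707% in QKO livers and 0.09496% to 3.95% in WT livers. Cox8b made up 85.5% to 87.2% in QKO hearts, 84.6% to 86.95% in WT hearts, 0.0584% to 0.571% in QKO livers and 0.072% to 6.18% in WT livers of Cox8a plus Cox8b. Cox7a1 made up 72.4% to 74.5% in QKO hearts, 72.01% to 74.8% in WT hearts, 1.398% to 3.27% in QKO livers and 2.01% to 5.01% in WT livers of Cox7a1 plus Cox7a2. For these 3 pairs QKO and WT overlapped in both tissues, and the highest WT liver was number 4. Cox4i2 was minor beside Cox4i1, at 0.91% to 1.25% in QKO hearts, 0.842% to 1.15% in WT hearts, 0.0268% to 0.0787% in QKO livers and 0% to 0.116% in WT livers, and Cox6b2, the testis relative of Cox6b1, was at most 0.117% of its pair in any library. Ndufa4l2 was 1.07% to 1.75% in QKO hearts, 0.822% to 1.73% in WT hearts, 0.191% to 0.588% in QKO livers and 0.175% to 0.384% in WT livers of Ndufa4 plus Ndufa4l2. Ndufa4, named for complex I and found in complex IV, was higher in WT hearts than in WT livers by 0.53 ± 0.21 (adjusted p = 0.0391), a call lost when WT heart 1, 2 or 3 or WT liver 2 or 3 was left out (adjusted p of 0.0626 to 0.108). In QKO animals Ndufa4 had 207, 224, 221 and 251 CPM in QKO hearts against 113, 154, 141 and 170 CPM in QKO livers, with no overlap. There the call was kept in edgeR with 1 library left out (log2 change 0.56 to 0.75, adjusted p of 6.46e-04 to 0.00355).

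**Figure D3:**
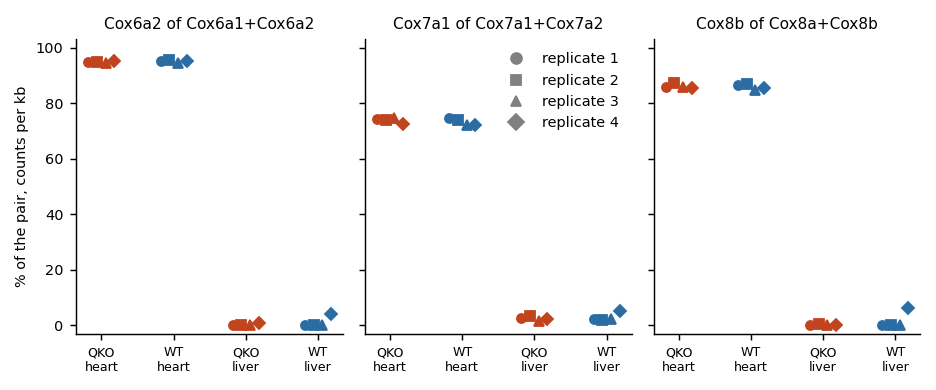
Share of the muscle isoform in its complex IV pair (%, counts per kb) in each library of the 4 groups. Cox6a2, Cox7a1 and Cox8b hold most of their pair in all 8 hearts and little of it in the livers, where WT liver 4 is the highest.

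The promoters of the nuclear genes were read from RefSeq (GRCm38.p6), and those of 3 genes are shown to set the isoform that is lower in heart (Cox6a1) and a gene higher in heart (Sdha) beside a muscle isoform (Cox7a1). A window from 250 bases before to 50 after the start was found by symbol for 67 of the 86 genes. The core letters bound by the nuclear respiratory factor NRF1 (GCGC, then A, then any base, then GCGC, on either strand) occurred in 17 of 67 (25.4%) against 7.17% of 17491 protein-coding genes. CCGGAAG, a core of ETS factors such as the GABP complex, occurred in 16 of 67 (23.9%) against 12.9%, AAGATGGC, a core of YY1, in 9 of 67 (13.4%) against 3.57%, AAGGTCA, a core of the estrogen-related receptors, in 8 of 67 (11.9%) against 4.73%, and TATAAA in 7 of 67 (10.4%) against 14.8%, all on either strand. A match is a description and not a shown site, and no match says only that these letters are not in the window. The first 210 bases of each window are printed 5′ to 3′ along the gene, with the NRF1 letters in capitals, which occur 2 times in Cox6a1, 2 times in Sdha and 0 times in Cox7a1.
Cox6a1 (chr5:115348999-115349208, minus strand): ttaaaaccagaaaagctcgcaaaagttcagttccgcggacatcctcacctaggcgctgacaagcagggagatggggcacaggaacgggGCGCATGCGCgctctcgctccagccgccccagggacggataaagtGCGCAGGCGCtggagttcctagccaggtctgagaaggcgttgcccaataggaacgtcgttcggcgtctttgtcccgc
Sdha (chr13:74350281-74350490, minus strand): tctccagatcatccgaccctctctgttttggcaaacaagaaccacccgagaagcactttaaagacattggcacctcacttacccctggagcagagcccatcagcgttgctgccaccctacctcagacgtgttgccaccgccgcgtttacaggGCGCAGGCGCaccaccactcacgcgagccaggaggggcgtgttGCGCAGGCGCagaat
Cox7a1 (chr7:30183921-30184130, plus strand): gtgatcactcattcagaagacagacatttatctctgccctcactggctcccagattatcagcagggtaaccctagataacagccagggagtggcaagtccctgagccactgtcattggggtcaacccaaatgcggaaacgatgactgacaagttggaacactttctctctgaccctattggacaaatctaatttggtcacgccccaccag

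All 13 mitochondrial genes were higher in heart than in liver in both genotypes with no overlap, where 34.3% of all genes in QKO and 33.7% in WT animals had every heart above every liver. The median log2 change was 4.30 in QKO and 5.21 in WT animals. In QKO animals the change ran from 2.24 ± 0.26 for mt-Co3, a core subunit of complex IV (adjusted p = 5.09e-06), to 5.54 ± 0.86 for mt-Atp6, the proton channel subunit of ATP synthase (adjusted p = 7.25e-05). In WT animals it ran from 2.46 ± 0.34 for mt-Co1 (adjusted p = 5.91e-05) to 6.06 ± 1.03 for mt-Co2, another core subunit of complex IV (adjusted p = 2.66e-04). The complex I genes mt-Nd2, mt-Nd4, mt-Nd5 and mt-Nd6 stood at 5.04, 5.39, 5.41 and 5.16 in QKO animals and at 5.23, 5.46, 5.63 and 6.02 in WT animals, above mt-Co1 and mt-Co3 in both. The lowest of complex I was mt-Nd3, at 2.71 in QKO and 2.81 in WT animals, near mt-Co3 at 2.74 in WT animals. In QKO animals mt-Co2 of complex IV stood at 4.30. The highest values rested on the hearts numbered 4. Without QKO heart 4, mt-Atp6 was at 3.64 in QKO animals, below mt-Nd5 at 5.56. Without WT heart 4, mt-Co2 was at 3.98 in WT animals, below mt-Nd6 at 6.29, and the WT median was 4.37.

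Several mitochondrial genes share their sequence with copies in the nuclear genome. Of all windows of 75 bases, the length of a read, 99.9% were found unchanged in an annotated nuclear copy for mt-Co3, 99.5% for mt-Co2, 99.5% for mt-Atp6, 98.7% for mt-Nd4l, 97.8% for mt-Nd3, 61.5% for mt-Nd4 and 39.8% for mt-Co1. The share was 5.71% for mt-Nd2, 0.457% for mt-Nd5 and 0% for mt-Nd1, mt-Nd6, mt-Cytb and mt-Atp8. The best copies of the first 7 are pseudogenes on chromosome 1 between 24611535 and 24616197 (GRCm38). A stretch of mt-Co2, bases 448 to 522 of the gene, is shown with its copies because the change of mt-Co2 between QKO and WT hearts turns sign without 1 library. Capitals mark, in each line, the 7 bases at which Gm13341, the copy on chromosome 2, differs from mt-Co2, while Gm28661 on chromosome 1 differs at 0.
mt-Co2 (chrM:7460-7534, plus strand): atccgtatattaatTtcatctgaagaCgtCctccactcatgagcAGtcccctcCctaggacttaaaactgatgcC
Gm28661 (chr1:24615044-24615118, minus strand): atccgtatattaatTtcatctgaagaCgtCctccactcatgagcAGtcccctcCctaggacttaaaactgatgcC
Gm13341 (chr2:22587453-22587527, minus strand): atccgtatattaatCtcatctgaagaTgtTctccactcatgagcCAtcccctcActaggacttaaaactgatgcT

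Of the counts on mt-Co2 and Gm28661 together, mt-Co2 held 27.5%, 34.1%, 31.2% and 57.9% in QKO hearts and 39.7%, 29.1%, 23.02% and 87.5% in WT hearts, and 23.5% to 35.1% in the livers. Of those on mt-Atp6 and its copy Gm10925, mt-Atp6 held 21.9%, 25.99%, 24% and 76.3% in QKO hearts and 18.8%, 20.99%, 15.8% and 68.9% in WT hearts, and 17.8% to 32.6% in the livers. For both genes the hearts numbered 4 stood above all other libraries. For mt-Co1 and Gm29216 the share of mt-Co1 was 97.01% to 98.3% in the 16 libraries. How reads that match more than 1 place were counted is not given in the sources used here.

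Between QKO and WT livers 0 of 93 respiratory chain genes tested (80 nuclear, 13 mitochondrial) passed the threshold, against 15 of 17738 genes overall (0.0846%), and DESeq2 and limma-voom also called 0. An unadjusted p under 0.05 was seen for 0 of the 93, against 3.29% of all genes. The genotypes overlapped for all 93, where 2.12% of all genes had no overlap. The median log2 change was 0.022 for the nuclear genes (50 of 80 above 0) and 0.042 for the mitochondrial ones (8 of 13 above 0), against -0.006 for all genes. Without QKO liver 3 the nuclear count above 0 was 25, and without WT liver 3 it was 33. Cox4i2, Cox8b, Cox6a2, Cox8c, Cox7b2 and Cox6b2 were too low in liver to be tested.

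Among the nuclear genes of liver, Uqcr10 had the lowest p, with 58.2, 60.4, 73.1 and 63.4 CPM in QKO livers against 59.7, 51.8, 48.1 and 59.7 CPM in WT livers. The ranges overlapped, and its log2 change of 0.21 ± 0.13 had an adjusted p of 0.9997 in edgeR, which is the adjusted p of all 93 genes. Ndufb8, an accessory subunit of complex I, had 57.4, 60.6, 87.1 and 55.3 CPM in QKO livers against 55.8, 54.3, 54.95 and 59 CPM in WT livers (0.21 ± 0.16). Sdhb had 117, 129.5, 181 and 107 CPM in QKO livers against 120.5, 114, 90.6 and 131 CPM in WT livers (0.22 ± 0.19). QKO liver 3 was the highest of the 8 for both Ndufb8 and Sdhb. Sdhc had 83.3, 90.6, 96.3 and 86.1 CPM in QKO livers against 78.04, 84.6, 77.6 and 78.8 CPM in WT livers, and the groups overlapped (0.15 ± 0.12). The highest changes of the other complexes were Ndufa4l2 of complex I at 0.24 ± 0.36, Cox6a1 of complex IV at 0.15 ± 0.14 and Atp5d, the delta subunit of ATP synthase, at 0.13 ± 0.16. The lowest were Ndufc1, a small subunit of complex I, at -0.15 ± 0.13, Sdha at -0.097 ± 0.13, Cycs at -0.12 ± 0.15, Cox7a1 at -0.38 ± 0.41 and Atp5s, a coupling factor of ATP synthase, at -0.36 ± 0.32. Cox7a1 was at 0.17 without WT liver 4.

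The mitochondrial genes of liver overlapped between the genotypes throughout. mt-Nd1 had 175, 239.9, 301 and 350.5 CPM in QKO livers against 352, 185, 269 and 223 CPM in WT livers (log2 change 0.042 ± 0.24). mt-Co1 had 4876, 5662, 4313 and 4904 CPM in QKO livers against 6143, 4696, 4879 and 3740 CPM in WT livers (0.013 ± 0.19). The 13 changes ran from -0.24 ± 0.21 for mt-Nd4, a membrane subunit of complex I, to 0.34 ± 0.25 for mt-Atp8, the short accessory subunit of ATP synthase. mt-Cytb, the mitochondrial subunit of complex III, had 149 to 216 CPM in QKO livers and 168 to 246 CPM in WT livers (-0.13 ± 0.18), and mt-Nd4l, a small membrane subunit of complex I with few counts, had 0.07805 to 0.293 CPM in QKO livers and 0.04601 to 0.368 CPM in WT livers (-0.20 ± 0.55).

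In heart, 0 of 96 genes tested (83 nuclear, 13 mitochondrial) passed the threshold between QKO and WT animals, against 28 of 16974 genes overall (0.165%). DESeq2 and limma-voom also called 0, although DESeq2 gave no adjusted p for mt-Co2 and mt-Atp6. An unadjusted p under 0.05 was seen for 6 of the 96, 5 nuclear and 1 mitochondrial, a share not above the 7.19% of all genes. Of the 83 nuclear genes, 81 had a log2 change above 0, against 49.6% of all genes tested, with a median of 0.10 against -0.001. The genes were measured in the same hearts, so they are not separate observations. Between hearts of the same group, the median log2 level of these genes varied with a pooled SD of 0.089. In 10 of the 83 every QKO heart exceeded every WT heart, against 2.3% of all genes, and in 0 every QKO heart lay below, against 2.37%. These 10 were Ndufs3, Ndufs7, Sdhc, Cyc1, Uqcrc1, Cox7c, Atp5a1, Atp5b, Atp5d and Atp5f1. The summed cardiomyocyte markers stood at 65410, 72840, 70580 and 80730 CPM of the nuclear protein-coding count in QKO hearts and 64980, 60520, 54440 and 69110 CPM in WT hearts, with 11 of 12 markers higher on average in QKO hearts and 1 (Myl7, an atrial marker) at 0 in a library. The summed macrophage markers stood at 189, 198, 232 and 226 CPM in QKO hearts and 276, 230.1, 232 and 364 CPM in WT hearts, with 7 of 7 markers lower on average in QKO hearts and 0 at 0 in a library. The summed hepatocyte markers, with 12 of 12 lower on average in QKO hearts and 0 at 0, stood at 277 to 572 CPM in QKO hearts and 226 to 1152 CPM in WT hearts. All 3 sums overlapped between QKO and WT hearts, and their part in the shift of the nuclear genes was not tested. Within the animals numbered in the 47 series the median was 0.015 with 51 above 0, and within the 48 series, which holds both hearts low in ribosomal RNA, it was 0.19 with 80 above 0. Without QKO heart 4 the median was 0.058, and without both hearts numbered 4 it was 0.044 with 63 above 0.

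By complex, the nuclear genes above 0 in heart were 37 of 37 for complex I, 3 of 4 for complex II, 10 of 10 for complex III, 15 of 15 for complex IV and 16 of 17 for complex V, with median log2 changes of 0.11, 0.057, 0.11, 0.095 and 0.097 in that order. The lowest p was that of Atp5d. It had 86.4, 86.6, 81.2 and 85.2 CPM in QKO hearts against 74.6, 74.7, 73.6 and 71.7 CPM in WT hearts, with no overlap. Its log2 change was 0.20 ± 0.057, with an adjusted p of 0.422 in edgeR, which over the alternatives ran from 0.0936 with DESeq2 to 1 in a fit of all 16 libraries. The change was 0.22 within the 47 series and 0.19 within the 48 series.

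Sdhc had 110, 113, 112 and 125 CPM in QKO hearts against 101, 104, 94.6 and 108 CPM in WT hearts (0.17 ± 0.068, adjusted p = 0.66). Ndufs3, a core subunit of the matrix arm of complex I, had 53.3, 55.5, 54.1 and 59.9 CPM in QKO hearts against 50.6, 52.9, 48.9 and 50.8 CPM in WT hearts (0.13 ± 0.06, adjusted p = 0.692). Uqcrc1, a core protein of complex III, had 304, 308, 323 and 336 CPM in QKO hearts against 283, 294, 269 and 296 CPM in WT hearts (0.15 ± 0.069, adjusted p = 0.692). For these 3 genes all QKO hearts lay above all WT hearts. Atp5g2 had 36.9, 37.3, 37.8 and 42.4 CPM in QKO hearts against 34.8, 37.9, 29.3 and 34.6 CPM in WT hearts, where WT heart 2 fell within the QKO range (0.18 ± 0.078, adjusted p = 0.6902).

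The highest changes of complexes I, III and IV in heart were those of Ndufb2, an accessory subunit (0.16 ± 0.10), Uqcr10 (0.16 ± 0.089) and Cox7a1 (0.16 ± 0.081). Cox7a1 had 185, 212, 205 and 226 CPM in QKO hearts against 196, 200.4, 168 and 177 CPM in WT hearts, which overlapped. The lowest were Ndufa13, an accessory subunit of complex I, whose change was 0 to the third decimal and -0.003 with upper-quartile scaling, Sdha at -0.026 ± 0.077, Cycs at 0.068 ± 0.078, Cox6c, a small subunit of complex IV, at 0.017 ± 0.069 and Atp5s at -0.12 ± 0.12. Sdha and Atp5s were the nuclear genes below 0, and Sdha had 331, 289, 283 and 279 CPM in QKO hearts against 309.7, 299.5, 312 and 282 CPM in WT hearts, which overlapped.

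**Figure D4:**
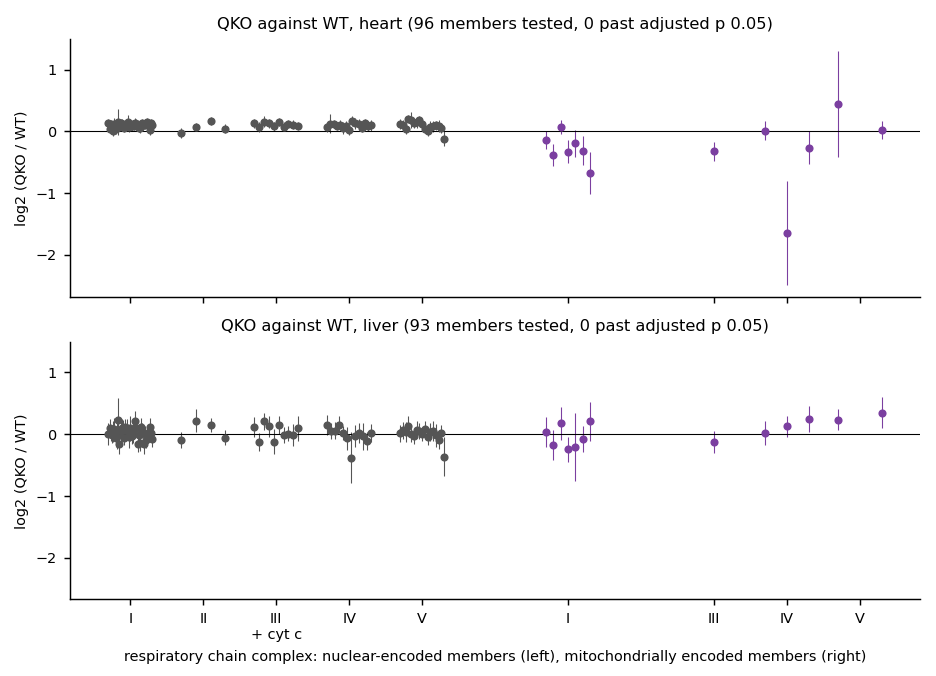
Log2 change of QKO over WT for each tested gene in heart (top) and liver (bottom), nuclear genes by complex and mitochondrial genes apart, with SE as whiskers. No gene passed an adjusted p of 0.05, and most nuclear genes of heart lie a little above 0.

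Of the 13 mitochondrial genes of heart, 9 had a log2 change below 0, none past the threshold, with a median of -0.26. The median was -0.081 without WT heart 3 and -0.40 without WT heart 4. Of the 13, 4 were above 0, against 1 without QKO heart 2 or QKO heart 4 and 0 without both hearts numbered 4. With 1 library left out this count ran from 1 to 5, so it moved both ways. mt-Nd2, a membrane subunit of complex I, had 1925, 1855, 1388 and 1425 CPM in QKO hearts against 2393, 2275, 2522 and 1387 CPM in WT hearts. WT heart 4 was the lowest of the 8, and the other WT hearts lay above every QKO heart (-0.38 ± 0.17, adjusted p = 0.692). Without WT heart 4 its change was -0.54 (adjusted p = 0.152). mt-Cytb had 3867, 3763, 2808 and 2902 CPM in QKO hearts against 4296, 4633, 4733 and 3019 CPM in WT hearts (-0.32 ± 0.16, adjusted p = 0.714). mt-Nd6, the subunit read from the other strand of the mitochondrial genome, had 558, 489.9, 312 and 231 CPM in QKO hearts against 997, 592, 700.3 and 249 CPM in WT hearts (-0.67 ± 0.34, adjusted p = 0.722). WT heart 4 was the lowest WT heart for both. Of the 6 genes with less than 10% of their windows in a nuclear copy, 5 were below 0 in heart and 3 in liver. mt-Nd6 (bases 13552 to 14070) lies on the strand opposite mt-Nd5 (bases 11742 to 13565), and these genes overlap only at their ends. The strand setting of the counting is not given in the sources used here. Whether RNA of the opposite strand was counted in mt-Nd6 is therefore not known.

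All 13 mitochondrial genes overlapped between QKO and WT hearts, mt-Nd2, mt-Cytb and mt-Nd6 among them. mt-Nd5, a membrane subunit of complex I, had 2356, 2090, 1378 and 1161 CPM in QKO hearts against 2359, 2347, 2673 and 1300 CPM in WT hearts (-0.31 ± 0.23). mt-Nd4 had 1440, 1289, 953 and 966 CPM in QKO hearts against 1535, 1607, 1756 and 927 CPM in WT hearts (-0.33 ± 0.18). For mt-Nd5 the hearts numbered 4 were the lowest of their group in both genotypes. mt-Nd1 had 4514, 4688, 3777 and 4668 CPM in QKO hearts against 5360, 5076, 5454 and 3560 CPM in WT hearts (-0.14 ± 0.14). mt-Co1 had 23880, 29420, 22520 and 31190 CPM in QKO hearts against 25970, 29560, 27020 and 23580 CPM in WT hearts (0.011 ± 0.15). Its change was the closest to 0 of the 13. mt-Co3 had 212, 355, 246 and 460.2 CPM in QKO hearts against 289, 336, 634 and 269 CPM in WT hearts (-0.26 ± 0.27), and its change was 0.095 without WT heart 3, the highest library. The small complex I subunits mt-Nd3 and mt-Nd4l were at 0.072 ± 0.11 and -0.19 ± 0.22, and mt-Atp8 was at 0.025 ± 0.14.

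The extremes were mt-Co2 and mt-Atp6, and their values turned on the hearts numbered 4. mt-Co2 had 120.5, 198, 134 and 626 CPM in QKO hearts against 294, 169, 130.3 and 2760 CPM in WT hearts, with WT heart 4 the highest and QKO heart 4 next. Its log2 change of -1.64 ± 0.84 (adjusted p = 0.728) was 0.44 without WT heart 4 and -0.39 without both. mt-Atp6 had 74.97, 104, 66.8 and 975 CPM in QKO hearts against 84.7, 92.4, 73.7 and 642 CPM in WT hearts, with the same libraries high. Its change of 0.44 ± 0.86 (adjusted p = 0.932) was -1.45 without QKO heart 4, 1.86 without WT heart 4 and -0.022 without both. Summed with its chromosome 1 copy, mt-Co2 had 438, 581, 430 and 1081 CPM in QKO hearts against 741, 579, 566 and 3156 CPM in WT hearts, with the same libraries highest. In the livers of the 8 animals mt-Co2 had 9.41 to 17.1 CPM. The hearts numbered 4 also had the highest shares of mitochondrial ribosomal RNA, at 54.8% of all counts in QKO heart 4 and 47.5% in WT heart 4, against 22.5% to 37.4% in the other hearts, and the part of library content in these values was not tested.

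**Figure D5:**
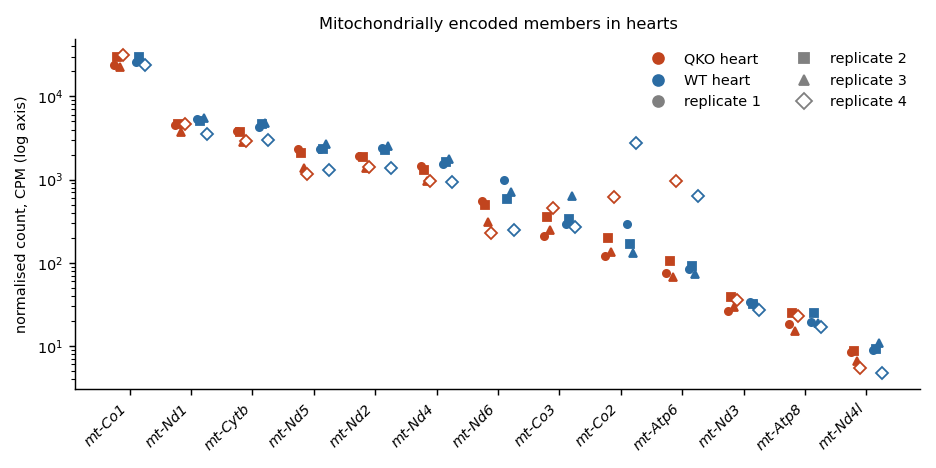
Normalised count (CPM, log axis) of the 13 mitochondrial genes in each heart library, QKO in red and WT in blue, with open diamonds for replicate 4. The diamonds of both genotypes lie far above the other libraries for mt-Co2 and mt-Atp6 and lowest in their group for mt-Nd5 and mt-Nd6.

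Whether the genotype effect differed between tissues was tested as the heart change minus the liver change over all 16 libraries. It passed for 0 of 96 genes, against 1 of 19587 genes overall (0.00511%). An unadjusted p under 0.05 was seen for 1 of the 96, against 4% of all genes. That gene was Cox8b, at 2.63 ± 1.25 (adjusted p = 0.9999), which was too low in liver to be tested there. WT liver 4 held 3.205 CPM of Cox8b and the other livers 0.258 CPM or less. Of the 13 mitochondrial genes 1 had a difference above 0, with a median of -0.20. This count ran from 0 to 4 when 1 of the 16 libraries was left out, and was 4 without WT liver 2, WT liver 4 or QKO liver 4, 3 without QKO heart 3, 0 without WT heart 1 and 2 without QKO heart 1, WT heart 2, 3 or 4 or QKO liver 2 or 3. The nuclear median was 0.071, with 66 of 83 above 0, against a median of -0.001 and 49.84% above 0 for all genes. The nuclear count ran from 44 to 79 when 1 of the 16 libraries was left out.

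Genes that build and supply the chain were read out of the same tests by 10 lists of assembly factors, regulators, mitochondrial DNA upkeep, RNA processing, ubiquinone synthesis and the mitochondrial ribosome. In each list 0 genes passed between QKO and WT animals in heart or in liver. The 78 genes of the mitochondrial ribosome, which translates the mitochondrial messages, had a median log2 change of 0.09 with 69 above 0 in heart and 0.003 with 40 above 0 in liver. The 16 complex I assembly factors had medians of 0.11 in heart and 0.039 in liver, and the 11 regulators, among them the coactivators and nuclear receptors of respiratory genes, -0.088 in heart and 0.064 in liver. Between WT hearts and WT livers, where 35.6% of all genes were higher and 36.9% lower, the mitochondrial ribosome had 21 higher and 27 lower of 78, the assembly factors of complex I 4 higher and 4 lower of 16, of complex II 1 higher and 0 lower of 4, of complex III 4 higher and 0 lower of 6 and of complex IV 7 higher and 8 lower of 21, and the assembly factors and inhibitor of complex V 3 higher and 0 lower of 4. Mitochondrial DNA upkeep and transcription had 3 higher and 3 lower of 15, RNA processing 5 higher and 7 lower of 17, the regulators 7 higher and 1 lower of 11 and ubiquinone synthesis 10 higher and 2 lower of 13.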

How the data were processed

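Total RNA of heart and liver was made into stranded libraries after ribosomal RNA removal and sequenced as read pairs, per the labels. The authors deposited whole-number gene counts. The submitters' processing notes name cutadapt, HISAT2, featureCounts and mm10, while versions, the strand setting and the counting of reads that match several places are not given in the sources used here.

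Counts were tested with edgeR 4.0.16 (quasi-likelihood F test, filterByExpr, TMM, Benjamini-Hochberg adjustment over all genes tested) in R 4.3.3, within each tissue, between tissues within each genotype, and as the difference of genotype effects over all 16 libraries. CPM values use TMM library sizes. Levels per kb divide by the summed exon length. DESeq2 1.42.0, limma 3.58.1 (voom), other scalings and filters, blocks and left-out libraries were alternatives. Heart and liver of the same animal deviated together with correlations of 0.0395 to 0.147, and the animal block is an alternative. Nuclear copies were found with BLAST+ 2.17.0 among the annotated GENCODE transcripts of GRCm38, and promoters come from RefSeq. The genotype tests within each tissue were tried on simulated counts with known changes in 200 genes, drawn at random from all genes tested. In liver they recovered 11.9% of changes of 1.5-fold, 32.8% of 2-fold and 87.9% of 4-fold. In heart they recovered 49.3%, 71.6% and 95.5%, so over all genes smaller changes are often missed, most of all in liver. These shares cover genes of all levels and spreads, and the share for respiratory chain genes alone was not measured. Genes named are all 13 mitochondrial genes, the isoform sets, the highest and lowest change per complex in each comparison and the 5 lowest p of nuclear genes per tissue. Atp5g3 was added beside the other subunit c genes. The members and lists were chosen with earlier results of these data known. Each library is 1 animal and tissue, and 4 per group limit what can be detected.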

Additional observations from a re-analysis of the deposited data

Results flagged for a closer look

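Of 134 sets of 4 libraries checked, 10 held a library far from the other 3 by Dixon's 95% criterion, where chance at 1 in 20 gives 6.7. In QKO heart 4, mt-Co2 stood at 626 CPM (the other QKO hearts 120.5 to 198), mt-Atp6 at 975 CPM (66.8 to 104) and Atp5g2 at 42.4 CPM (36.9 to 37.8). In WT heart 4, mt-Co2 stood at 2760 CPM (the other WT hearts 130.3 to 294) and mt-Atp6 at 642 CPM (73.7 to 92.4). Ndufb8 was at 87.1 CPM in QKO liver 3 (the other QKO livers 55.3 to 60.6). The share of Cox6a2 in its pair was 0.707% in QKO liver 4 (the other QKO livers 0.156 to 0.224). In WT liver 4 the muscle isoforms made up 3.95% (Cox6a2, the other WT livers 0.09496 to 0.205), 5.01% (Cox7a1, 2.01 to 2.38) and 6.18% (Cox8b, 0.072 to 0.138) of their pairs. These are single libraries, and the causes were not tested.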

How the results depend on the processing

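In every alternative run, 0 respiratory chain genes passed between QKO and WT animals in heart, in liver or in the difference between them. For QKO against WT heart, DESeq2 gave no adjusted p for mt-Co2 and mt-Atp6, so that run did not judge them. Between hearts and livers the nuclear genes called higher numbered 73 to 78 in QKO and 69 to 76 in WT animals, with 2 lower throughout. The mitochondrial genes called were 13 throughout, except 12 in QKO and 11 in WT animals with DESeq2, which gave no adjusted p for mt-Atp6 and, in WT, mt-Co2. All-gene counts moved more. In liver (15) they were 50 with DESeq2, 44 with all 16 libraries in 1 fit and 33 in the 48 series. In heart (28) they were 102 with no filter, 64 with DESeq2, 16 with all 16 libraries, 108 in the 47 series and 18 to 25 with 1 library left out. For the difference between tissues (1) they were 2 with no filter, 13 with DESeq2, 0 with limma-voom and 1 to 3 with 1 library left out. QKO and WT libraries share only a replicate number: with it as a block the heart count was 50, the correlations of deviations ran from -0.118 to 0.161 in liver and from 0.044 to 0.408 in heart, and no other count moved by over 1.5 times. With the animal as a block the count for the difference between tissues was 0.

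Medians of the mitochondrial genes moved to -0.38 in liver in the 47 series. In WT hearts against WT livers they moved to 4.68 with limma-voom, 4.58 with the animal as a block, 4.31 without both libraries of WT animal 4 (chosen after seeing the data) and 4.37 to 5.33 with 1 library left out. Upper-quartile scaling moved the nuclear medians to 1.26 in QKO and 1.22 in WT animals, and the medians of all genes to 0.20 and 0.16. Small changes turned sign. For QKO against WT liver these were mt-Co1 with upper-quartile scaling (-0.006) and mt-Nd4l with limma-voom (0.002); in the 47 series mt-Nd1 (-0.38), mt-Co1 (-0.044), mt-Nd3 (-0.10), mt-Nd6 (-0.66) and Cox7a1 (0.25); in the 48 series mt-Nd2 (0.16), mt-Atp8 (-0.068), mt-Co3 (-0.062), mt-Nd5 (0.25), mt-Cytb (0.11), mt-Nd4l (0.23) and Cycs (0.047); and without WT livers 3 and 4 mt-Co1 (-0.13), Ndufa4l2 (-0.077) and Cox7a1 (0.067). For QKO against WT heart, Ndufa13 stood at -0.003 with upper-quartile scaling, -0.002 with sizes from nuclear protein-coding genes, -0.005 with a filter of 1 CPM in 4 libraries, -0.003 with the replicate block and -0.001 with the number series as a term. In the 47 series the turned signs were Ndufa13 (-0.084), mt-Co1 (-0.051), mt-Atp8 (-0.026) and Sdha (0.034), and without both hearts numbered 4 Ndufa13 (-0.087), mt-Co1 (-0.12), mt-Atp8 (-0.12), mt-Atp6 (-0.022), mt-Nd3 (-0.036), Cycs (-0.022) and Cox6c (-0.022). Cox7a2l of WT heart against WT liver stood at 0.16 with upper-quartile scaling, 0.079 with the CPM filter and 0.013 without WT animal 4. With 1 library left out, signs turned within these ranges: in heart Cox6c (-0.014 to 0.051), Ndufa13 (-0.069 to 0.032), Sdha (-0.087 to 0.003), mt-Atp6 (-1.45 to 1.86), mt-Atp8 (-0.083 to 0.14), mt-Co1 (-0.069 to 0.085), mt-Co2 (-2.47 to 0.44), mt-Co3 (-0.50 to 0.095) and mt-Nd3 (-0.017 to 0.15); in liver Cox7a1 (-0.60 to 0.17), mt-Co1 (-0.091 to 0.14), mt-Nd1 (-0.12 to 0.23), mt-Nd2 (-0.33 to 0.03), mt-Nd4l (-0.53 to 0.072), mt-Nd5 (-0.23 to 0.037) and mt-Nd6 (-0.17 to 0.43); and Cox7a2l of WT heart against WT liver (-0.12 to 0.045). The cause of these moves was not tested.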
